A study of Mus musculus with 48 samples.

Results

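The genes described here were the 10 tubulin genes *Tubb6*, *Tubb2a*, *Tubb2b*, *Tubb3*, *Tubb4a*, *Tubb4b*, *Tubb5*, *Tuba1a*, *Tuba1b* and *Tuba1c*, found by symbol among the 24973 genes of the deposited expression table. They were chosen because *Tubb6* was higher in the ipsilateral hemisphere in every cell type, and the other 9 isotypes serve as its comparison. The hemispheric change of *Tubb6* is therefore given as a description with no test. RNA was measured in 48 libraries from male C57BL/6 mice aged 12 to 15 weeks, in which the middle cerebral artery was transiently occluded for 60 min before the brains were collected 24 h after occlusion. The neurovascular unit was represented by its endothelial cells, pericytes, astrocytes and microglia, which were sorted by flow cytometry from the ipsilateral, ischemic hemisphere and from the contralateral hemisphere, which was the control. Each of the 8 groups held 6 libraries, and each replicate was a pool of 3 to 4 mice that gave both hemispheres. The contralateral hemisphere came from the same operated mice, and sham-operated mice were not analysed here.

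Microtubules are polymers of heterodimers of 1 alpha and 1 beta tubulin. Mammals encode several isotypes of each, which resemble each other closely over most of the protein and differ most in the acidic carboxy-terminal tail, the part that faces outwards and carries modifications such as polyglutamylation of glutamates. Free tubulin is folded by prefoldin and the chaperonin CCT, and its own mRNAs are degraded when unpolymerized dimers accumulate. In brain, *Tubb3* is used as a marker of neurons, *Tubb4a* is abundant in myelinating oligodendrocytes, and *Tubb2b* and *Tuba1a* are prominent in developing neurons. *Tubb5*, *Tubb4b*, *Tuba1b* and *Tuba1c* are widely expressed, and *Tubb6* is a broadly but unevenly expressed beta isotype.

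The end of the coding sequence is shown because it is where most of the isotypes are told apart. The lines of *Tubb2a* and *Tubb2b* differ only in synonymous codons, so this end does not separate those proteins. The lines give, for 7 of the 10 genes, the last 60 coding bases, stop codon included, from the GENCODE vM21 annotation of GRCm38, the build of the deposited table, with the codons of glutamate (GAA and GAG) in capitals. *Tubb2a* lies at chr13:34074468-34074527 and *Tubb2b* at chr13:34127471-34127530, both on the minus strand. *Tubb3* lies at chr8:123421623-123421682 on the plus strand, *Tubb4a* at chr17:57080690-57080749, *Tubb4b* at chr2:25222308-25222367 and *Tubb5* at chr17:35834982-35835041 on the minus strand. *Tuba1c* lies at chr15:99037950-99038009 on the plus strand.
Tubb2a: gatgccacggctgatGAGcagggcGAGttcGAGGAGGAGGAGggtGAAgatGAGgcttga
Tubb2b: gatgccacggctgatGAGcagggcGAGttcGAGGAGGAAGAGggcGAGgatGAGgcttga
Tubb3: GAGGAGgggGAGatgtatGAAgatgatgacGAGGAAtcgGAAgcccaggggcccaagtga
Tubb4a: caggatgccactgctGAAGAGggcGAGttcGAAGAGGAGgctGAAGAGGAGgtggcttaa
Tubb4b: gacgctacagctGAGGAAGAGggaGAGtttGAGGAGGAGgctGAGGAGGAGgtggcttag
Tubb5: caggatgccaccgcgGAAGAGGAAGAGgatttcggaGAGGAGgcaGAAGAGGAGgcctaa
Tuba1c: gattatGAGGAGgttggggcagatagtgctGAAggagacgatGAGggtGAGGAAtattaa

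These 20 codons held 10 glutamate codons in *Tubb4b*, 9 in *Tubb4a* and *Tubb5*, 8 in *Tubb2a* and *Tubb2b*, 7 in *Tubb3* and 6 in *Tuba1c*. Over the whole coding sequence, *Tubb6* was 80.2% to 85.7% identical to the other 6 beta isotypes. *Tubb2a* and *Tubb2b* were 96.5% identical, with a longest shared run of 551 bases, and the 3 alpha genes were 97.1% to 98.3% identical to each other. This bears on the counting, since the authors left out reads that mapped to several places, and reads were 75 bases long. All 75-base windows of the transcripts of *Tubb6*, *Tubb3*, *Tubb4a* and *Tubb5* (100%) were found in no other annotated gene. The share was 67.8% for *Tubb2b*, 59.1% for *Tubb4b*, 56.8% for *Tubb2a*, 43.3% for *Tuba1c*, 29.6% for *Tuba1a* and 21.7% for *Tuba1b*. The values of these 6 genes rest on the part of the transcript that is their own and are uncertain as absolute levels. Reads overlapping several genes were left out as well. *Tubb4b* shares 121 exonic bases (5.8%) with *Fam166a* and *Tuba1a* shares 473 (26.2%) with *Gm49450*. *Tuba1b* shares 513 (27.4%) with *Gm41396* and *Gm49450*. Whether strand was used in the counting is not given in the sources used here.

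The deposited values are normalized counts, that is, reads on genes scaled by library size factors and then rounded. They summed to 10549900 to 16942165 per library, and the spacing of low values put the reads on genes at 4900000 to 17100000, with a median of 11700000. The detection floor was set at 3 reads, worth 3 to 8 normalized counts, which covers counting error only. In 12 ipsilateral libraries, titles and column names conflict, one naming pericytes where the other names microglia, and the column names were followed. By these names the sum of 4 pericyte markers was 34058 to 90625 in pericytes and 102 to 1865 in microglia, and that of 10 microglial markers was 405263 to 727554 in microglia and 706 to 107546 in pericytes. In both hemispheres together, the summed markers of each cell type were higher in each library of that cell type than in any library of the others. In libraries other than microglia, microglial markers summed to 1562 to 107546 in replicates 1 to 4 and to 596 to 3841 in replicates 5 and 6. In these bulk samples, fewer cells of a type and less RNA per cell cannot be told apart.

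*Tubb6* (ENSMUSG00000001473, GRCm38 chromosome 18, plus strand) was higher in the ipsilateral hemisphere in 6 of 6 replicate pairs in each of the 4 cell types, which is the pattern for which the genes were chosen. In endothelial cells, its normalized count was 725 at the lowest, 1292 at the median and 1803 at the highest in contralateral libraries, and 7732, 9720 and 14773 in ipsilateral libraries. The lowest ipsilateral library was thus above the highest contralateral one, and the mean log2 ratio within pairs was 3.05 ± 0.52 (SD, n = 6), a geometric mean of 8.30-fold. In astrocytes, *Tubb6* was far lower in the contralateral hemisphere, with a lowest value of 103, a median of 176 and a highest value of 450, and it reached 690, 1520.5 and 2116 in the ipsilateral hemisphere. The astrocyte groups did not overlap either, and the mean log2 ratio was 2.90 ± 0.63 (SD, n = 6), or 7.45-fold.

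In pericytes, *Tubb6* was 860 at the lowest, 1207.5 at the median and 2652 at the highest in contralateral libraries, and 2661, 4255 and 4862 in ipsilateral libraries. The pericyte groups were separated by a narrow gap, between replicate 2 of the contralateral and replicate 5 of the ipsilateral hemisphere, and the mean log2 ratio was 1.58 ± 0.48 (SD, n = 6), or 2.98-fold. In microglia, it was 804, 1113 and 2190 in contralateral libraries and 2793, 3431.5 and 3919 in ipsilateral libraries. The microglial groups did not overlap, and the mean log2 ratio was 1.41 ± 0.47 (SD, n = 6), or 2.66-fold. For orientation, the share of all genes tested whose ipsilateral libraries all lay above the contralateral ones was 1.13% for endothelial cells, 0.838% for pericytes, 0.655% for astrocytes and 3.78% for microglia, and nothing is read from this for *Tubb6*, since the choice of genes used that contrast. The single pairs ranged from 5.52-fold to 13.4-fold in endothelial cells, 4.33-fold to 13.9-fold in astrocytes, 1.72-fold to 4.68-fold in pericytes and 1.79-fold to 3.87-fold in microglia. A larger mean log2 rise was found for 120 of 13242 genes in endothelial cells, 129 of 15264 in astrocytes, 987 of 13597 in pericytes and 510 of 13300 in microglia.

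**Figure D1:**
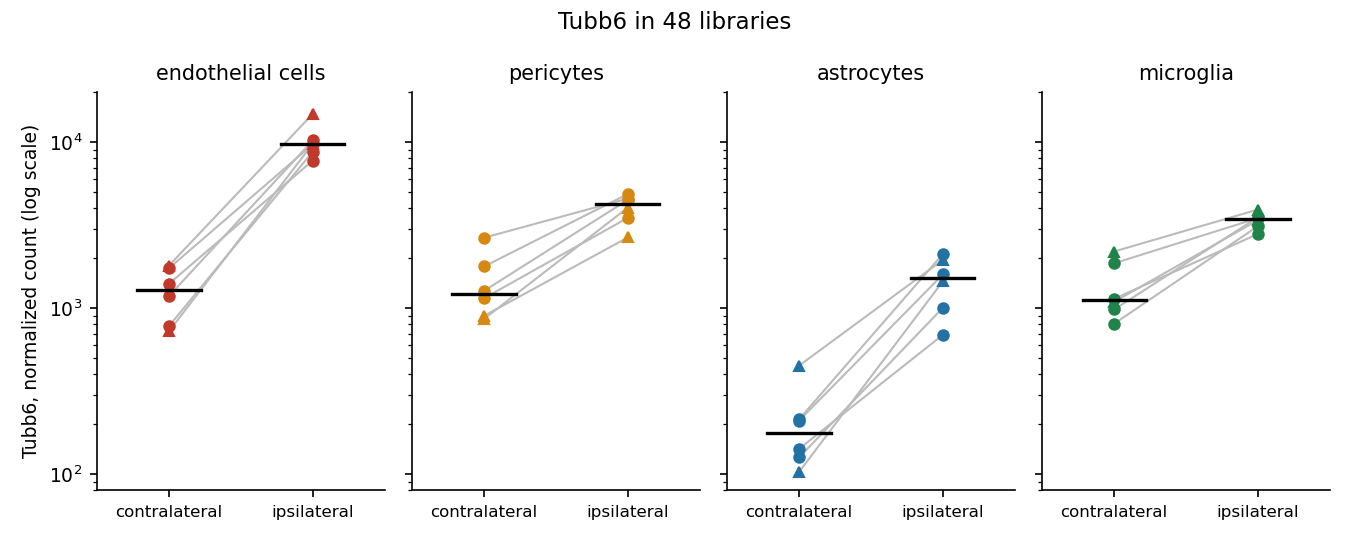
Normalized count of *Tubb6* (log axis) in the contralateral and ipsilateral libraries of each cell type. Points are libraries (circles replicates 1 to 4, triangles replicates 5 and 6), grey lines join libraries of the same replicate number and black bars are medians. Every line goes up, from medians of 1292, 1207.5, 176 and 1113 to 9720, 4255, 1520.5 and 3431.5.

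In ipsilateral libraries the order of the *Tubb6* level was endothelial cells, pericytes, microglia and astrocytes. Endothelial cells (7732 to 14773) lay above pericytes (2661 to 4862), pericytes and microglia (2793 to 3919) overlapped, and astrocytes (690 to 2116) lay below both. Because microglial markers differed between replicates, the rise was also read in replicates 5 and 6 alone. There the geometric mean fold of *Tubb6* was 10.5 for endothelial cells (7.39 for replicates 1 to 4), 3.72 for pericytes (2.67), 7.76 for astrocytes (7.30) and 2.36 for microglia (2.83). In pericytes of replicates 5 and 6 the microglial markers summed to 706 to 929 in the ipsilateral hemisphere, against 22851 to 107546 in replicates 1 to 4. The part of microglial RNA in the change was not tested. The ipsilateral microglia library of replicate 3, the shallowest with 4900000 reads on genes, held 3114 normalized counts of *Tubb6*, within the range of its group.

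The levels between cell types of the contralateral hemisphere were tested for the other 9 isotypes, whose values the choice did not use, in 6 contrasts with limma, a linear model fitted to all genes on log2(normalized count + 1). A call needed an adjusted p (Benjamini-Hochberg) no higher than 0.05, a change of 1.5-fold or more, and over 10 normalized counts in all 6 libraries of 1 of the groups. Of the 54 tests, 38 were called. The isotypes differed between astrocytes and microglia in 9 of 9 genes (46.3% of all genes), between endothelial cells and astrocytes in 8 (44.2%), between pericytes and astrocytes in 8 (41.1%), between pericytes and microglia in 6 (42.7%), between endothelial cells and pericytes in 4 (30.1%) and between endothelial cells and microglia in 3 (37.6%). The counts that involve astrocytes were thus above the share of all genes, and the last was close to it.

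The contralateral values of *Tubb6* entered the choice of genes, so its levels between cell types are given with no test. *Tubb6* had its lowest level in astrocytes, with a log2 difference of 2.70 ± 0.35 (SE) for endothelial cells minus astrocytes, 2.85 ± 0.35 for pericytes minus astrocytes and -2.78 ± 0.35 for astrocytes minus microglia. Endothelial cells, pericytes and microglia differed by less than the SE of 0.35, with log2 differences of -0.14, -0.07 and 0.07. *Tuba1c* and *Tuba1b*, alpha isotypes of many tissues, had the same low place in astrocytes. *Tuba1c* was 10 at the lowest, 45 at the median and 183 at the highest in astrocytes, 344, 630 and 1285 in microglia, 201, 529.5 and 900 in endothelial cells and 2276, 3759 and 4889 in pericytes. The pericyte libraries all lay above those of the other groups, and the log2 difference of *Tuba1c* was -2.85 ± 0.50 for endothelial cells minus pericytes (limma, adjusted p = 5.48e-05) and 2.41 ± 0.50 for pericytes minus microglia (adjusted p = 0.000237). *Tuba1b* was lower in astrocytes than in the other 3 cell types by 0.82 to 1.01 on the log2 scale and did not pass the test between those 3, with differences of -0.04 to 0.19 (SE 0.22). *Tubb5* also had its lowest median in astrocytes and was called lower there than in endothelial cells, by 1.17 ± 0.20 (adjusted p = 3.23e-05), and than in microglia, by 1.01 ± 0.20 (adjusted p = 0.000157), but not than in pericytes (0.51 ± 0.20, under the fold needed).

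**Figure D2:**
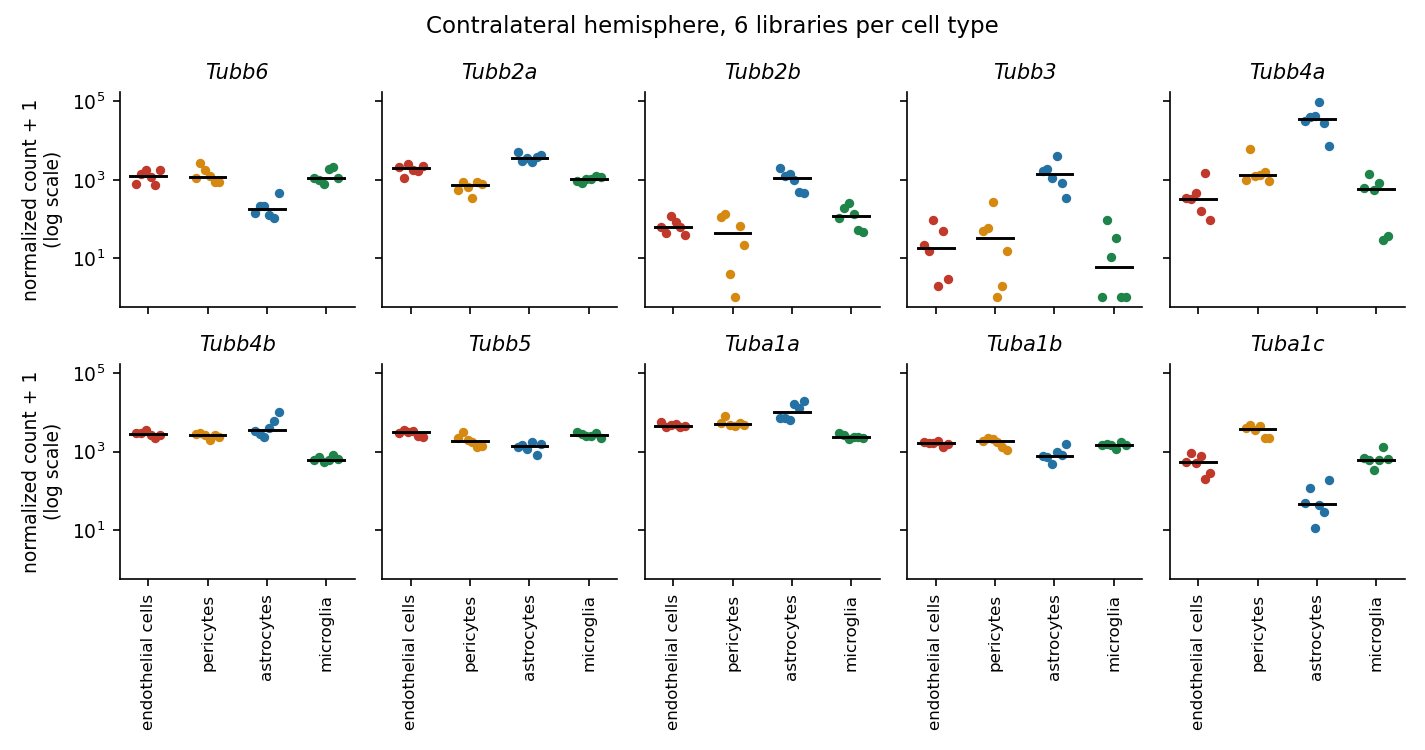
Normalized count plus 1 (log axis) of the 10 tubulin genes in the 24 contralateral libraries, by cell type, with medians as black bars. *Tubb6*, *Tubb5*, *Tuba1b* and *Tuba1c* have their lowest medians in astrocytes (176, 1399, 795.5 and 45). *Tubb2a*, *Tubb2b*, *Tubb3*, *Tubb4a*, *Tubb4b* and *Tuba1a* have their highest there (3660, 1120.5, 1431, 36430, 3676 and 10054.5).

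*Tubb2a*, *Tubb2b*, *Tubb3*, *Tubb4a* and *Tuba1a* were higher in the contralateral astrocyte libraries than in each of the other 3 cell types. The difference was greatest for *Tubb4a*, at 6.87 ± 0.83 for astrocytes minus microglia (limma, adjusted p = 1.97e-07), and for *Tubb3*, at 7.81 ± 1.33 (adjusted p = 2.33e-05). *Tubb4a* was 7226 at the lowest, 36430 at the median and 98231 at the highest in contralateral astrocytes, and 93, 331.5 and 1512 in endothelial cells. *Tubb3* was 347, 1431 and 4056 in astrocytes, while in microglia it was 0 in 3 of 6 libraries and 91 at the highest, so its fold there depends on the value added before taking logs. *Tubb4b* had its highest median in astrocytes as well (3676). It was called for astrocytes minus microglia, at 2.68 ± 0.24 (adjusted p = 1.68e-09), and for pericytes minus astrocytes, at -0.70 ± 0.24 (adjusted p = 0.0193). Endothelial cells minus astrocytes, at -0.56 ± 0.24, was not called (adjusted p = 0.0543). The astrocyte libraries also held markers of other cells. The sum of 5 oligodendrocyte markers (*Mbp*, *Mog*, *Mag*, *Mobp* and *Cnp*) was 27383 to 206298 in contralateral astrocytes, against 691 to 22227 in the contralateral libraries of the other cell types. In contralateral astrocytes its median was 113018, beside 85602 for the sum of 4 astrocyte markers (57129 to 114614).

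The astrocyte library with the most *Tubb4a* in each hemisphere, replicate 4, was also the one with the most oligodendrocyte markers (98231 and 206298 contralateral, 91207 and 225171 ipsilateral). In contralateral astrocytes, replicate 6 held the least of both (7226 and 27383). In ipsilateral astrocytes, *Tubb4a* was lowest in replicate 1 (16509, markers 61623) and the marker sum in replicate 6 (43383, *Tubb4a* 17386). In pericytes, replicate 2 was highest in both measures in each hemisphere (6136 and 22227 contralateral, 5854 and 14361 ipsilateral). *Tubb3* was highest in astrocytes of replicate 4 as well, at 4056 and 6296. The sum of 9 neuronal markers in astrocytes was 280 to 1449. That of 4 neuroblast markers was 592 to 1778 in replicates 1 to 4 and 4280 to 11894 in replicates 5 and 6. Of these 4, *Cd24a* had the highest mean, 3176 in contralateral and 2651 in ipsilateral astrocytes. Contralateral astrocyte *Tubb3* was lowest in replicates 5 and 6, at 836 and 347. In contralateral endothelial cells the neuronal and neuroblast sums were 966 to 2665 and 798 to 2660, with *Tubb3* at 1 to 95. There, *Stmn2* (mean 1637) and *Cd24a* (mean 1338) were the highest of these lists. Only 1 marker of each list was over 10 in all 6 libraries, and *Nefl*, *Nefm* and *Slc17a7* were 0 in all of them. The part of other cells in these levels of *Tubb4a*, *Tubb3* and *Tubb2b* was not tested. Nor was their part in the high or low astrocyte levels of the other members, *Tubb6* included.

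**Figure D3:**
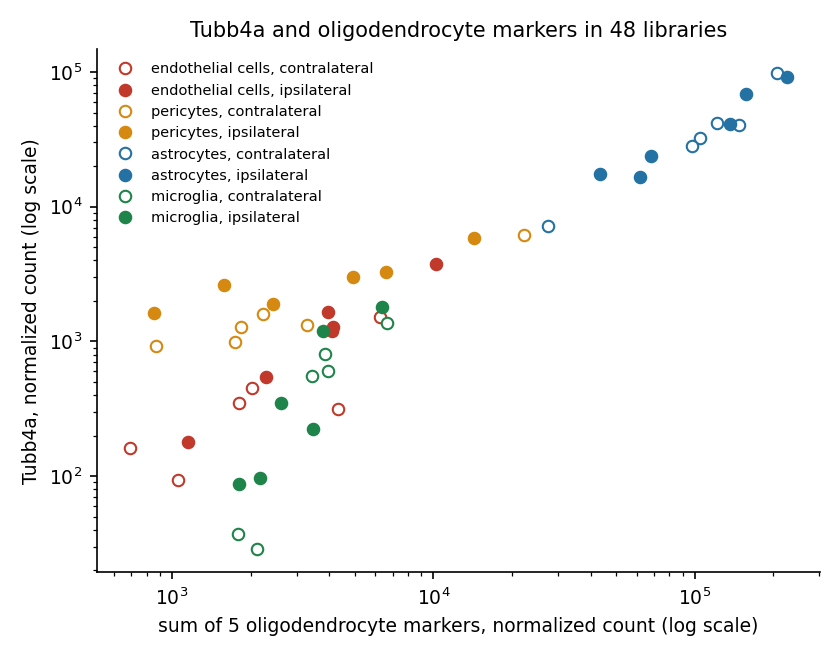
Normalized count of *Tubb4a* against the sum of 5 oligodendrocyte markers in 48 libraries, both on log axes, with open points for contralateral and filled points for ipsilateral libraries. The astrocyte libraries hold 27383 to 225171 normalized counts of the markers and 7226 to 98231 of *Tubb4a*, both ranges above those of all other libraries.

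Further differences lay among endothelial cells, pericytes and microglia. *Tubb4b* was 535 at the lowest, 625.5 at the median and 798 at the highest in contralateral microglia, and 2200, 2832.5 and 3549 in endothelial cells. The groups did not overlap, and the log2 difference was 2.12 ± 0.24 for endothelial cells minus microglia (limma, adjusted p = 8.98e-08) and 1.98 ± 0.24 for pericytes minus microglia (adjusted p = 1.97e-07). *Tubb2a* was higher in endothelial cells than in pericytes by 1.51 ± 0.22 (adjusted p = 6.44e-06). *Tubb5* was higher in endothelial cells than in pericytes by 0.66 ± 0.20 (adjusted p = 0.0134), and between endothelial cells and microglia its difference was 0.15 ± 0.20 (adjusted p = 0.59). *Tuba1a* was higher in pericytes than in microglia by 1.13 ± 0.23 (adjusted p = 0.000171), and between endothelial cells and pericytes its difference was -0.18 ± 0.23 (adjusted p = 0.589).

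The hemispheres were then compared for the 9 isotypes other than *Tubb6*. In microglia, *Tubb4b*, *Tubb5*, *Tuba1b* and *Tuba1c* were higher in the ipsilateral hemisphere, 4 of 9 against 4.29% of all 13300 genes tested that were called higher there (10.6% in either direction). In endothelial cells 0 of 9 were called, against 0.491% of all genes, with 5 at an unadjusted p under 0.05. The count was also 0 of 9 in pericytes (1.02% of all genes, 6 at an unadjusted p under 0.05) and in astrocytes (0.341%, 1 at an unadjusted p under 0.05). The median change of the 9 isotypes was 0.51 on the log2 scale for endothelial cells (-0.03 over all genes tested), 0.73 for pericytes (-0.04), 0.46 for astrocytes (-0.06) and 0.70 for microglia (-0.18).

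In microglia, *Tubb4b* was 535 at the lowest, 625.5 at the median and 798 at the highest in contralateral libraries, and 1088, 1278.5 and 1596 in ipsilateral libraries. All ipsilateral libraries were above the contralateral ones, and the log2 change was 1.01 ± 0.16 (SE, limma, adjusted p = 0.0019). *Tubb5* was 2291, 2648.5 and 3125 in contralateral and 3904, 5082 and 6154 in ipsilateral microglia. Its groups did not overlap, and the change was 0.90 ± 0.15 (adjusted p = 0.00252). *Tuba1b* was 1173, 1487 and 1792 in contralateral and 2214, 2413 and 2650 in ipsilateral microglia. These groups did not overlap either, so that 3 of the 9 isotypes were separated in this way, against 3.78% of all genes, and the change of *Tuba1b* was 0.70 ± 0.14 (adjusted p = 0.00498).

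*Tuba1c* was 344, 630 and 1285 in contralateral and 1271, 1557.5 and 2284 in ipsilateral microglia, with an overlap through contralateral replicate 5 alone. Its change was 1.30 ± 0.26 (SE, limma, adjusted p = 0.00583). *Tuba1a*, the alpha isotype with the highest level per length in contralateral microglia, was 2104, 2367.5 and 2968 in contralateral and 2202, 2472 and 2761 in ipsilateral microglia. Its ranges overlapped over most of their width, and its change was 0.03 ± 0.14 (adjusted p = 0.919). *Tubb2a* behaved likewise, with medians of 1026.5 and 1044 and a change of -0.03 ± 0.16 (adjusted p = 0.924). *Tubb2b*, *Tubb3* and *Tubb4a* were low and scattered in microglia, with ipsilateral medians of 131, 18 and 286.5, and did not pass the test. The 4 isotypes called were the same genes under each alternative setting and without each replicate.

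Other transcripts moved with these microglial changes. The sum of the 10 microglial markers was 744023 to 868835 in contralateral and 405263 to 727554 in ipsilateral microglia, and 3 of the 10 (*Csf1r*, *P2ry12* and *Tmem119*) were called lower. Of 5 neutrophil markers, 4 were tested and 3 of these were called higher and 1 lower, with *Ly6g* at 0 in all contralateral microglia libraries. *Csf3r*, the 1 called lower, made up most of the contralateral sum (6322 to 7941), with a mean of 6746, and the other 4 markers summed to 59 to 896 in contralateral and 1221 to 17722 in ipsilateral microglia. Of 4 monocyte markers, *Plac8* was called higher (with the replicate pair as a block *Ccr2* as well), their median change was 1.64 on the log2 scale, and their sum was 8103 to 12617 in contralateral and 7995 to 21093 in ipsilateral microglia. The 6 cell cycle markers summed to 85 to 210 in contralateral and 43 to 226 in ipsilateral microglia, and 0 of the 4 tested were called. The part of these cells in the tubulin changes was not tested. In replicates 5 and 6, in which the 4 neutrophil markers other than *Csf3r* summed to 303 to 305 contralateral and 1221 to 1519 ipsilateral (59 to 896 and 2182 to 17722 in replicates 1 to 4), the mean log2 ratio within pairs was 0.74 for *Tubb4b*, 0.79 for *Tubb5*, 0.50 for *Tuba1b* and 0.86 for *Tuba1c*, against 1.14, 0.96, 0.80 and 1.52 in replicates 1 to 4.

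**Figure D4:**
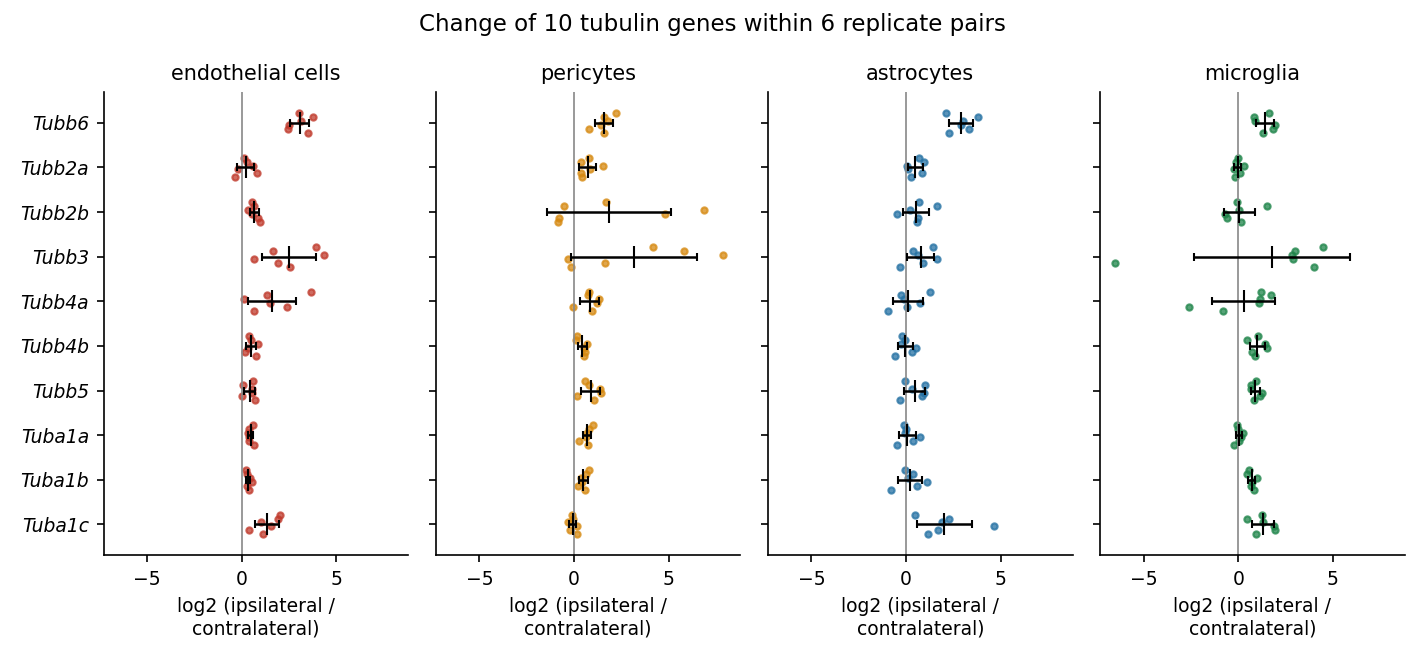
Log2 ratio of ipsilateral to contralateral normalized count plus 1 for the 10 tubulin genes in each cell type. Points are the 6 replicate pairs and the black mark and bar are their mean and SD; *Tubb6* has means of 3.05, 1.58, 2.90 and 1.41, and the wide bars of *Tubb3* and *Tubb2b* in pericytes and of *Tubb3* in microglia come with libraries at or near 0.

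In endothelial cells, 8 of the 9 isotypes were higher in 6 of 6 pairs, against 4.77% of all genes tested, although none passed the test after adjustment. *Tuba1c* came nearest. It was 201 at the lowest, 529.5 at the median and 900 at the highest in contralateral and 767, 1202 and 1571 in ipsilateral libraries, and its change was 1.34 ± 0.35 (SE, limma, adjusted p = 0.116). *Tubb4b*, *Tuba1a*, *Tubb5* and *Tuba1b* had changes of 0.51, 0.46, 0.41 and 0.34, with adjusted p of 0.276, 0.306, 0.443 and 0.458. *Tubb3* was 1 at the lowest, 17.5 at the median and 95 at the highest in contralateral and 40, 92 and 157 in ipsilateral libraries. It was higher in 6 of 6 pairs with the greatest change of the 9 isotypes, 2.50 ± 0.93 (adjusted p = 0.283), with some contralateral values under the floor. *Tubb4a* was 93 to 1512 and 179 to 3758, in libraries whose oligodendrocyte markers summed to 691 to 6228 and 1155 to 10199. The median sum of 5 neutrophil markers went from 362 to 2139.5 in these endothelial libraries, that of 4 monocyte markers from 815 to 3912 and that of 10 microglial markers from 18303.5 to 27643, and their part in the changes of the isotypes was not tested.

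In pericytes, *Tuba1a* was 4464 at the lowest, 5006.5 at the median and 8178 at the highest in contralateral libraries, and 7143, 9062.5 and 10023 in ipsilateral libraries. Contralateral replicate 2 alone reached into the ipsilateral range, and the change was 0.69 ± 0.16 (SE, limma, adjusted p = 0.0625). With the replicate pair as a block the adjusted p was 0.0274, which is a call, and *Tuba1a* was also called without replicate 2. *Tubb5* was 1308, 1833.5 and 3216 in contralateral and 2122, 3995.5 and 5333 in ipsilateral pericytes, higher in 6 of 6 pairs, with a change of 0.89 ± 0.27 (adjusted p = 0.136). *Tubb2a* was also higher in 6 of 6 pairs, at 0.73 ± 0.24 (adjusted p = 0.157). *Tuba1c*, which had its highest level in pericytes, was 2276, 3759 and 4889 in contralateral and 2153, 3679 and 4464 in ipsilateral libraries. Its ranges overlapped over most of their width, with a change of -0.07 ± 0.25 (adjusted p = 0.919). In all, 5 of the 9 isotypes were higher in 6 of 6 pericyte pairs, against 4.55% of all genes. In the same libraries the median sum of microglial markers went from 4403.5 to 41384.5, that of neutrophil markers from 27 to 2716.5 and that of monocyte markers from 209 to 3209.5. Their part in the pericyte changes was not tested.

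In astrocytes, *Tuba1c* was 10 at the lowest, 45 at the median and 183 at the highest in contralateral and 106, 208 and 370 in ipsilateral libraries. It was higher in 6 of 6 pairs, and its change was 2.02 ± 0.59 (SE, limma, adjusted p = 0.261). The other isotypes had changes of -0.05 (*Tubb4b*, adjusted p = 0.983) to 0.76 (*Tubb3*, adjusted p = 0.745), with the smallest adjusted p of 0.583 for *Tubb2a*. *Tubb4a*, the isotype with the highest level there, was 7226 to 98231 in contralateral and 16509 to 91207 in ipsilateral astrocytes, with 3 pairs higher and 3 lower. In the astrocyte libraries the median sum of neutrophil markers went from 211 to 1067 and that of monocyte markers from 230.5 to 1478.5. That of microglial markers went from 8222 to 12712.5. Their part in the astrocyte changes, that of *Tubb6* included, was not tested. That a gene was called in microglia and not elsewhere was tested in its own right, as the difference in change between cell types in a fit of all 48 libraries. Of 54 such tests for the 9 isotypes, 0 were called (limma, smallest adjusted p = 0.228, 6 at an unadjusted p under 0.05), while the share of all genes called was 0.0267% for endothelial cells against pericytes, 0.06% for endothelial cells against astrocytes, 0.273% for endothelial cells against microglia, 0.00667% for pericytes against astrocytes, 0.727% for pericytes against microglia and 0.293% for astrocytes against microglia. A difference in change between the cell types was thus not shown for any of the 9 isotypes.

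To set the isotypes beside each other, the normalized counts were divided by exonic length in kb. The summed level of the 7 beta isotypes was 4244 ± 516 per kb (SD, n = 6) in contralateral and 9432 ± 1000 in ipsilateral endothelial cells. *Tubb6* made up 12.2% ± 4.02 of this level in the contralateral hemisphere and 43.8% ± 6.01 in the ipsilateral hemisphere, where it was the most abundant beta isotype, at 4166 ± 997 per kb against 1957 ± 403 for *Tubb4b*. In the contralateral hemisphere *Tubb4b* had led with 32.1% ± 2.97, followed by *Tubb2a* with 27.8% ± 5.42. Shares sum to 100%, so that the lower shares of the other isotypes go with the rise of *Tubb6*. Their own levels per kb were not lower on average in ipsilateral endothelial cells.

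In pericytes, *Tubb6* was 15.2% ± 3.35 (SD, n = 6) of the beta level in the contralateral and 24.9% ± 3.54 in the ipsilateral hemisphere, beside *Tubb4b* at 34.7% ± 7.30 and 25.6% ± 3.31. In microglia, *Tubb6* was 20.4% ± 6.59 and 30.6% ± 4.15, beside *Tubb5* at 30.6% ± 3.33 and 33.8% ± 6.54 and *Tubb2a* at 25.1% ± 5.29 and 14.3% ± 2.63. In astrocytes, *Tubb6* was 0.482% ± 0.536 and 2.47% ± 1.24, while *Tubb4a* held 67.5% ± 21.0 and 62.4% ± 16.9. The *Tubb6* share did not overlap between hemispheres in endothelial cells (7.63% to 17.8% and 40.3% to 55.9%) and pericytes (11.1% to 19.6% and 21.4% to 30.9%), and overlapped in microglia (13.9% to 30.0% and 25.7% to 36.8%) and astrocytes (0.102% to 1.56% and 0.835% to 4.33%). Among the 3 alpha genes of microglia, *Tuba1a* held 55.6% ± 4.97 of the alpha level in the contralateral and 41.0% ± 2.15 in the ipsilateral hemisphere. *Tuba1b* went from 32.4% ± 3.20 to 38.2% ± 2.67 and *Tuba1c* from a range of 7.19% to 19.8% to one of 16.5% to 25.9%.

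**Figure D5:**
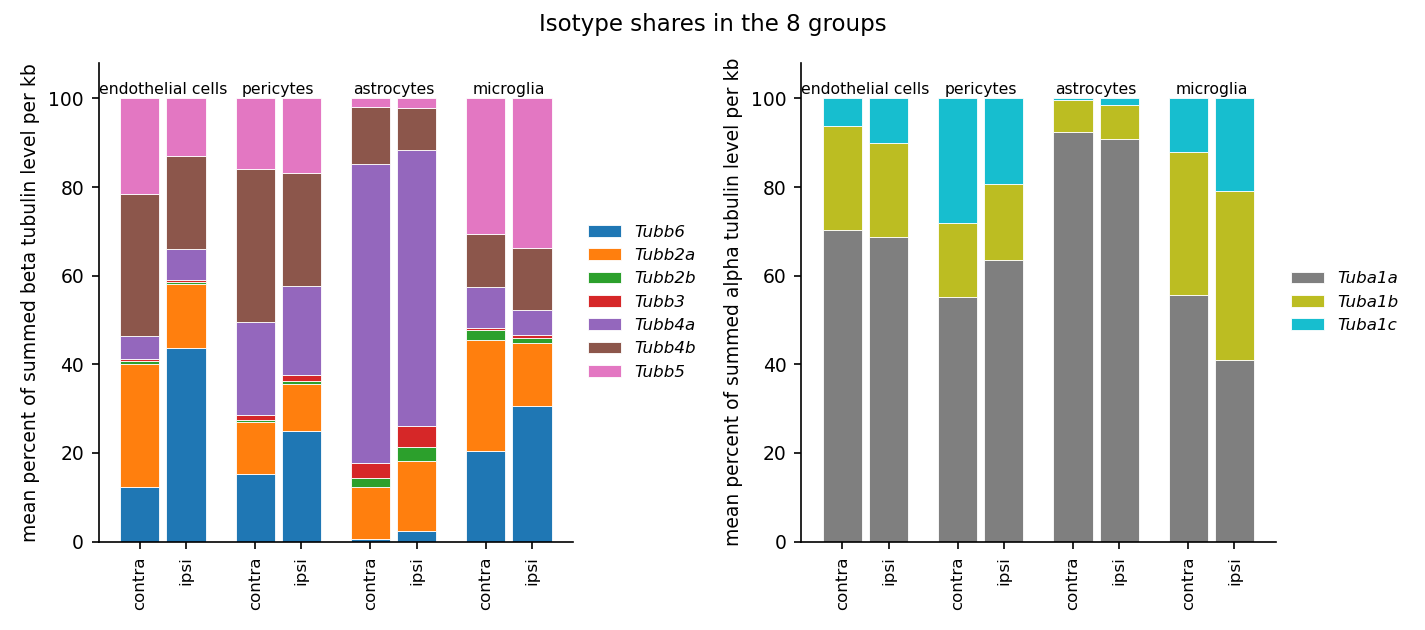
Mean share (percent, 6 libraries per group) of each beta isotype in the summed beta level per kb of exonic length, and of each alpha isotype in the alpha level, in the contralateral (contra) and ipsilateral (ipsi) groups. *Tubb6* goes from 12.2% to 43.8% in endothelial cells, and *Tubb4a* holds 67.5% and 62.4% in astrocytes.

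Since the alpha genes and *Tubb2a*, *Tubb2b* and *Tubb4b* lose reads to the counting, the shares were also computed per kb of 75-base windows found in no other gene. *Tubb6* was then 9.89% ± 3.13 (SD, n = 6) in contralateral and 38.8% ± 5.96 in ipsilateral endothelial cells, and *Tubb4b* 41.7% ± 3.26 and 29.5% ± 5.39. In ipsilateral microglia *Tuba1b* then led the alpha genes with 49.5% ± 2.66 over *Tuba1a* with 36.1% ± 1.82, whereas per kb of exonic length *Tuba1a* led with 41.0%. The beta order in microglia moved as well. Contralateral *Tubb2a* then held 29.5% ± 5.16 and *Tubb5* 25.3% ± 2.86, and ipsilateral *Tubb6* held 28.5% ± 3.46 beside *Tubb5* with 28.2% ± 5.59. The order and the shares of these isotypes therefore depend on the length used. The fold of each isotype's own level between hemispheres does not.

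The genes that fold, modify and bind tubulin were counted from lists chosen by function. In endothelial cells 2 of the 82 genes tested were called (0.491% of all genes), both higher. In pericytes 1 of 84 was called (1.02% of all genes), lower, and in astrocytes 0 of 92 (0.341%; limma, 7 at an unadjusted p under 0.05). In microglia 11 of 84 were called, 7 higher and 4 lower, which is near the 10.6% of all genes. There, 6 of the 14 genes of prefoldin and CCT were called higher (*Tcp1*, *Cct2*, *Cct3*, *Cct5*, *Cct6a* and *Cct8*), against 4.29% of all genes, and the median change of the 14 was 0.73 on the log2 scale against -0.18 over all genes. *Cct6a*, a subunit of the chaperonin that folds tubulin and actin, was 2917 to 3589 in contralateral and 5552 to 6484 in ipsilateral microglia. Its groups did not overlap, and the change was 0.90 ± 0.12 (SE, limma, adjusted p = 0.00058). *Tcp1*, another CCT subunit, was 1576 to 2500 in contralateral and 3021 to 3965 in ipsilateral microglia, with a change of 0.85 ± 0.15 (adjusted p = 0.00255). These 6 were also called when each replicate was left out in turn, and 3 of them, *Cct2*, *Cct6a* and *Tcp1*, were called in replicates 1 to 4 alone.

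In endothelial cells, *Tcp1* was 1378 to 1889 in the contralateral and 2636 to 4032 in the ipsilateral hemisphere. The groups did not overlap, and the change was 0.98 ± 0.17 (SE, limma, adjusted p = 0.021). *Map1b*, a microtubule-associated protein known from growing axons, was 252 to 360 in contralateral and 489 to 869 in ipsilateral endothelial cells, with a change of 1.26 ± 0.21 (adjusted p = 0.0187). Both calls were lost without replicate 1, 4, 5 or 6, and that of *Tcp1* also without replicate 3. Over all genes the endothelial calls fell from 65 to 38, 16, 13, 20 and 10 without replicates 1, 3, 4, 5 and 6. In pericytes, *Ttll7*, an enzyme that adds glutamates to the tails of beta tubulin, was 1376 to 3336 in the contralateral and 647 to 1706 in the ipsilateral hemisphere. Its change was -1.22 ± 0.27 (adjusted p = 0.0462), and the call was lost without replicate 1, 3, 4, 5 or 6. With the replicate pair as a block 3 genes were called in pericytes, *Ttll7* together with *Map1b* and the deglutamylase gene *Agtpbp1*, all of them lower.

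Of the other lists in microglia, *Ttll12*, of the tubulin tyrosine ligase-like family, was the only tubulin-modifying gene called among 15 tested, near the 10.6% of all genes, with 147 to 333 in contralateral and 301 to 625 in ipsilateral libraries and a change of 1.11 ± 0.27 (SE, limma, adjusted p = 0.0175). Of 24 microtubule-associated genes tested, 3 were called, all lower, against 6.27% of all genes called lower in microglia: *Mtus1*, at -1.36 ± 0.32 (adjusted p = 0.0139), *Camsap1*, which protects microtubule minus ends, at -1.09 ± 0.28 (adjusted p = 0.0209), and *Clasp2*. *Tubgcp5*, a subunit of the gamma-tubulin ring complex from which microtubules are nucleated, was 1016 to 1868 in contralateral and 355 to 1097 in ipsilateral microglia, with a change of -1.07 ± 0.25 (adjusted p = 0.0136). Without replicate 3 the calls of *Ttll12*, *Mtus1*, *Camsap1*, *Clasp2* and *Tubgcp5* were lost, and those of the 6 CCT subunits were made. *Ttll12* was also not called without replicate 4, *Camsap1* without replicate 1, 4 or 6, and *Clasp2* without replicate 1, 2, 5 or 6. Over all genes the microglial calls were 1404 with all replicates, 557 without replicate 3 and up to 1909 without replicate 2. Among the further tubulin genes, of which 8 had a row and 4 or 5 were tested in each cell type, and among the folding cofactors, 0 were called in any of the 4 cell types (limma, 0 to 1 at an unadjusted p under 0.05 in each list), and among stathmins, severing enzymes and depolymerising kinesins also 0 (1 to 3). With the replicate pair as a block, the cofactor gene *Tbcb* was called higher in microglia, at 0.88 ± 0.26 (adjusted p = 0.0345, against 0.0531 without the block).

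The genes whose pattern was most like that of *Tubb6* were ranked by Pearson's r with it on the log2 scale over the 48 libraries, which share cell types and hemispheres, so that r is a description. Of 15002 other genes, the highest were *Ldha* (r = 0.818), which encodes lactate dehydrogenase A, *Rps2* (0.817), a ribosomal protein gene, *Ptgs2* (0.805), which encodes cyclooxygenase-2, *Ubtd1* (0.795) and *Flot1* (0.781), which encodes flotillin-1. Among the members, *Tubb5* came at rank 19 (r = 0.745), *Tuba1b* at 25 (0.740) and *Tuba1c* at 41 (0.721), and the others had r of -0.435 to 0.0106. After centring each cell type on its mean, the highest were *AI506816* (0.854), *Sphk1* (0.827), which encodes sphingosine kinase 1, *Hmga1* (0.809), which encodes a chromatin protein, *AA467197* (0.794) and *Srxn1* (0.789), which encodes sulfiredoxin. *Tuba1c* then came at rank 16 (0.743), and the other members had r of 0.172 to 0.622. *Srxn1*, for example, had medians of 415.5, 382.5, 424.5 and 225 in contralateral and 1193.5, 877.5, 3676 and 1489 in ipsilateral endothelial cells, pericytes, astrocytes and microglia, all of them higher on the ipsilateral side as for *Tubb6*. Because *Srxn1* was picked for its likeness to *Tubb6*, nothing is read from this. In pericytes its ranges overlapped, at 247 to 583 in contralateral and 159 to 1931 in ipsilateral libraries.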

How the data were processed

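RNA of sorted cells was sequenced in 48 libraries (SMART-Seq HT, 75-base single reads). Per the submitters' processing notes and the methods, the authors trimmed reads with Trimmomatic 0.38, aligned them with STAR 2.6.1d to GRCm38 (mm10), counted those mapping once and overlapping 1 gene with featureCounts 1.6.3 and normalized the counts with DESeq2 1.18.1. What the authors deposited are normalized counts without decimals, a score on no fixed scale that was not used as raw counts. Rounding leaves a step of 1 normalized count, and an estimated 4900000 to 17100000 reads on genes per library set the precision at low values.

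Groups came from the column names. Tests were computed here with R 4.3.3 and limma 3.58.1 (lmFit, eBayes with trend, two-sided) on log2(value + 1), which understates changes of low genes, for genes averaging 10 or more over the libraries of the fit, with Benjamini-Hochberg adjustment over all genes. Each cell type was fitted on its 12 libraries, the contralateral contrasts on 24 libraries and differences between cell types on 48. Summaries used Python 3.11.15, numpy 2.4.6, pandas 2.3.3, and matplotlib 3.10.9, and sequences were read with Biopython 1.88. The limma step was tested on simulated data. Replicate numbers were taken to pair the hemispheres, since both came from pooled mice, but the labels do not state that equal numbers are the same pool. The mean correlation of deviations of same-numbered libraries was 0.227 for endothelial cells (lowest 0.01), 0.227 for pericytes (-0.073), 0.38 for astrocytes (0.019) and 0.135 for microglia (-0.028). For libraries of unlike number the means were -0.039, -0.045, -0.076 and -0.026.

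The 10 genes and the lists of pathway and marker genes were chosen with earlier results of these data known. A gene of the oligodendrocyte marker list and the coding ends of some isotypes are not reported here. Genes named are the 10 members, pathway genes called (in microglia 2 per list and direction with the smallest p) and the 5 genes most correlated with *Tubb6*. Single markers are also named where they were highest in their list or at 0. *Clasp2*, *Cct2*, *Cct3*, *Cct5*, *Cct8*, *Agtpbp1*, *Tbcb* and the markers *Plac8*, *Ccr2*, *Csf1r*, *P2ry12* and *Tmem119* were named beyond this rule after their values were seen. Alternatives were pseudocounts of 0.1 and 10, no filter or a minimum mean of 50, a replicate block, rescaling within the fit, a joint fit, no expression rule, each replicate left out and replicates 1 to 4 alone. *Tubb6* was left out of the contralateral tests after the data had been seen. A count test was not run, since reads were not used here.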

Additional observations from a re-analysis of the deposited data

Results flagged for a closer look

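Of 80 groups of 6 libraries (10 genes in 8 groups), 11 held a library whose gap to its nearest neighbour, as a share of the whole range of the group, was above Dixon's 95% critical value for 6 libraries. That value gives about 1 in 20 such groups only for normally distributed values. The counts were not logged and the groups share libraries, so the 11 of 80 cannot be read against this rate. For *Tubb6* these were ipsilateral endothelial cells of replicate 6, at 14773 normalized counts with the next library at 10218, and contralateral astrocytes of replicate 6, at 450 with the next at 214. Both lay at the high end of their group, and the log2 change of *Tubb6* without replicate 6 was 3.06 in endothelial cells and 3.05 in astrocytes. *Tubb4a* stood apart in contralateral endothelial cells of replicate 5, at 1512 (next 453), and in contralateral pericytes of replicate 2, at 6136 (next 1594), in which the oligodendrocyte markers summed to 6228 and 22227. *Tuba1a* stood apart in the same pericyte library, at 8178 (next 5468), and in ipsilateral endothelial cells of replicate 1, at 9170 (next 6605). *Tubb3* stood apart in contralateral pericytes of replicate 3, at 278 (next 58), in contralateral microglia of replicate 2, at 91 (next 32), and in ipsilateral microglia of replicate 4, at 236 (next 80). The remaining libraries were contralateral microglia of replicate 5 for *Tuba1c*, at 1285 (next 679), and ipsilateral microglia of replicate 6 for *Tubb2b*, which was low at 45 (next 117).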

How the results depend on the processing

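The number of the 9 isotypes called between hemispheres was 0 in endothelial cells and 4 in microglia under each alternative, and the 4 were the same genes. In pericytes it was 1 (*Tuba1a*) with the replicate block and after rescaling, 1 (*Tubb5*) in the joint fit and 0 to 1 with a replicate left out, and in astrocytes 1 (*Tuba1c*) in the joint fit. The replicate block changed no other call of an isotype. Among pathway genes, the count in endothelial cells was 5 in the joint fit, 0 in replicates 1 to 4 and 0 to 2 with a replicate left out. In pericytes it was 3 with the replicate block, 2 with a mean of at least 50, 0 with a pseudocount of 0.1, with no filter, after rescaling, in the joint fit and in replicates 1 to 4, and 0 to 1 with a replicate left out. In microglia it was 6 in replicates 1 to 4 and 6 to 11 with a replicate left out. The contralateral count of 38 was 34 to 39 with a replicate left out, and differences between cell types in the change stayed at 0. The log2 change of *Tubb6* moved by less than its SD. Values near 0 that were not called changed sign. In astrocytes *Tubb4a* (0.11) was -0.0802 in replicates 1 to 4 and -0.12 to 0.33 with a replicate left out, *Tubb4b* (-0.05) was 0.0059 after rescaling and -0.16 to 0.0552 with a replicate left out, and *Tuba1a* was -0.0627 to 0.19. In microglia *Tubb2a* (-0.03) was 0.032 after rescaling and -0.0905 to 0.0096 with a replicate left out, *Tubb2b* (0.06) was -0.29 in replicates 1 to 4 and -0.24 to 0.20, *Tubb4a* (0.29) was -0.29 in replicates 1 to 4, and *Tuba1a* was -0.0152 to 0.0709. Between contralateral endothelial cells and pericytes *Tubb3* (-0.23) was 0.23 with a pseudocount of 0.1 and -1.21 to 0.19 with a replicate left out, *Tubb6* was -0.38 to 0.0142 and *Tuba1b* -0.14 to 0.0352. Between endothelial cells and microglia *Tubb6* (-0.07) was 0.11 in replicates 1 to 4 and -0.31 to 0.23 with a replicate left out, *Tubb4a* (0.24) was -1.38 and -0.84 to 0.75, and *Tuba1c* (-0.45) was 0.31 in replicates 1 to 4. Between pericytes and microglia *Tubb6* (0.07) was -0.20 to 0.34 with a replicate left out. The cause of these shifts was not tested. Length unique in the genome was not run, since no genome sequence was used here, and windows in no other annotated gene replaced it after the data had been seen. Low values lie near or below the floor of 3 to 8 normalized counts and carry the widest errors. Examples are the lowest of *Tubb3* in contralateral endothelial cells (1), contralateral pericytes (0) and microglia (0). In ipsilateral endothelial cells (40 to 157) and pericytes (44 to 274) *Tubb3* lay above the floor.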
